A study of Homo sapiens with 4 samples.

Results

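The abundant regulatory long non-coding RNAs (lncRNAs) MALAT1, NEAT1, NORAD, TUG1, KCNQ1OT1 and OIP5-AS1 were followed in H1299 cells exposed to mercury chloride. The H1299 line was established from a human non-small-cell lung cancer. Cells were kept for 48 h with 5 μM HgCl2, or with 0.6% EtOH as solvent control, and poly-A RNA was sequenced. The treatment text of the labels gives 5 μM to all samples, whereas the study's methods give it to the exposed cells only, and the latter is used here. All transcripts of these 6 genes were taken from the count and FPKM tables by matching transcript identifiers to gene symbols on GRCh38. They are 57 of the 227368 transcripts listed.

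Each group has 2 columns, labelled as replicates, with total counts from 4720978 to 5053120 per column. Both columns of a group differed by less than sampling noise would give. The variance of their difference was 0.505 times that of counting noise in EtOH and 0.516 times in HgCl2, against 31.8 times between an EtOH and an HgCl2 column. Each group was therefore counted as 1 sample, and no p-value is given for the effect of HgCl2. Intervals are exact 95% Clopper-Pearson intervals from the mean counts, and they cover counting error only. Of the markers checked, VIM held 501 to 628 counts per column over all its transcripts and KRT18 held 18 to 31. KRT8 held 53 and 58 counts in EtOH and 4 and 4 in HgCl2. The markers set to be near 0 were at 0 counts for PTPRC, 1 to 5 for PECAM1 and 3 to 18 for COL1A1, so COL1A1 was not absent. Fewer cells of a type and less RNA per cell cannot be told apart in such bulk samples.

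NEAT1 and MALAT1 are made from neighbouring genes and stay in the nucleus. The long form of NEAT1 is the scaffold of paraspeckles, bodies that hold RNA-binding proteins such as SFPQ and NONO, whereas the short form ends at an early poly-A site and is not sufficient to build them. MALAT1 sits in nuclear speckles, which store splicing factors. The mature 3′ ends of MALAT1 and of long NEAT1 are cut by RNase P and carry no poly-A tail, and both are protected by a triple helix of U-rich and A-rich tracts. NORAD is largely cytoplasmic and binds Pumilio proteins such as PUM2. OIP5-AS1, whose vertebrate relatives are known as cyrano, binds miR-7 and the protein ELAVL1. TUG1 has been linked to Polycomb proteins, and KCNQ1OT1 is an antisense RNA made within KCNQ1 that silences its imprinted neighbours.

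The sequences that set apart these RNAs were read from GENCODE 44 transcripts on GRCh38. The first shows where the short NEAT1 transcripts end, at chr11:65426454-65426553 on the plus strand. Capitals mark the AATAAA signal, and the farthest-reaching short transcripts end 5 bases after it.
NEAT1, end of the short form: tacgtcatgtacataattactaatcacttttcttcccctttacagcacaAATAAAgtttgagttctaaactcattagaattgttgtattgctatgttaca

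The next pair shows the triple-helix ends, at chr11:65445443-65445540 for NEAT1 and at chr11:65506021-65506116 for MALAT1, both on the plus strand. Capitals mark TTTCTTTT, TTTTGCTTTT and AAAAAGCAAAA.
NEAT1, 3′ end: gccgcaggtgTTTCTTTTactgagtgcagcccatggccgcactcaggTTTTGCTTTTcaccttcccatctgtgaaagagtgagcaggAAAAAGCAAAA
MALAT1, 3′ end: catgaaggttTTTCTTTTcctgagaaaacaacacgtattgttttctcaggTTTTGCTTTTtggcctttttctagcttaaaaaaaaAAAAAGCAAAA
These 3 motifs in this order, on the transcript strand and with at most 60 bases between neighbours, were found in 2 of the 223558 listed transcripts with a sequence, namely NEAT1-202 and MALAT1-202. The A-rich tract is the last of NEAT1-202, with 0 bases after it, whereas the model of MALAT1-202 runs on for 1957 bases.

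NORAD holds 15 matches to TGTANATA, the element bound by Pumilio proteins. One of each spelling is shown with 10 bases on either side, in capitals, from chr20:36050183-36050210, chr20:36049703-36049730 and chr20:36049493-36049520 on the minus strand.
NORAD, TGTATATA: ggaaggcctgTGTATATAatatgaaaaa
NORAD, TGTAAATA: aatcacatttTGTAAATAcctttttgtt
NORAD, TGTACATA: gtgtatatagTGTACATAaaggacagac
TGTATATA occurs 10 times, TGTAAATA 4 times and TGTACATA 1 time. Of the 14249 listed transcripts between 4 and 7 kb, 4 (0.0281%, NORAD included) hold as many matches, and the median transcript of this length holds 0.

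OIP5-AS1-201 holds 3 matches to GTCTTCC, the complement of the miR-7 seed. A total of 115 of the 3363 listed transcripts between 7 and 11 kb (3.42%) hold as many. The site with the longest pairing lies at chr15:41300574-41300599 on the plus strand. Its capitals mark the bases paired with miR-7, and the capitals of hsa-miR-7-5p, from RefSeq, mark its seed (bases 2 to 8).
OIP5-AS1, miR-7 site: AACAACAAAATCACcaatGTCTTCCA
hsa-miR-7-5p: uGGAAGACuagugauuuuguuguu
Beside 8 bases paired at the seed, this site pairs 14 bases in a row with the rest of the miRNA, against 5 and 3 bases at the other sites.

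What the tables measure of each gene depends on where its transcripts overlap. The counts are per transcript, and reads on bases that several listed transcripts share were mostly not counted. Of the 80430 listed transcripts with no base of their own, 1.71% had any count, and they held 1.66% of all counts. There were exceptions, such as SRRM2 of the speckle list, whose transcript ENST00000301740 has 0 such bases and 3024 to 3791 counts. Of the 57 lncRNA transcripts, 17 have bases that no other listed transcript covers, called own bases here, and 40 have none. A total of 13 have a count in any column and 44 are at 0 in all 4 columns. Of the 40 without an own base, 2 have counts, OIP5-AS1-209 and MALAT1-209, the latter with 1 count in 1 column.

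NEAT1-202, the long form of 22743 bases (ENST00000501122, chr11:65422798-65445540, plus strand, 1 exon), has 18927 own bases, and all of them lie past the end of the short transcripts. Its counts thus come mainly from the part that the long form alone has. The other 8 NEAT1 transcripts are short and were listed at 0 counts in every column. Only NEAT1-201 among them has own bases, 24 in number, so these zeros are no measure of the level of short NEAT1, and the balance of short and long NEAT1 is not given by these counts.

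**Figure D1:**
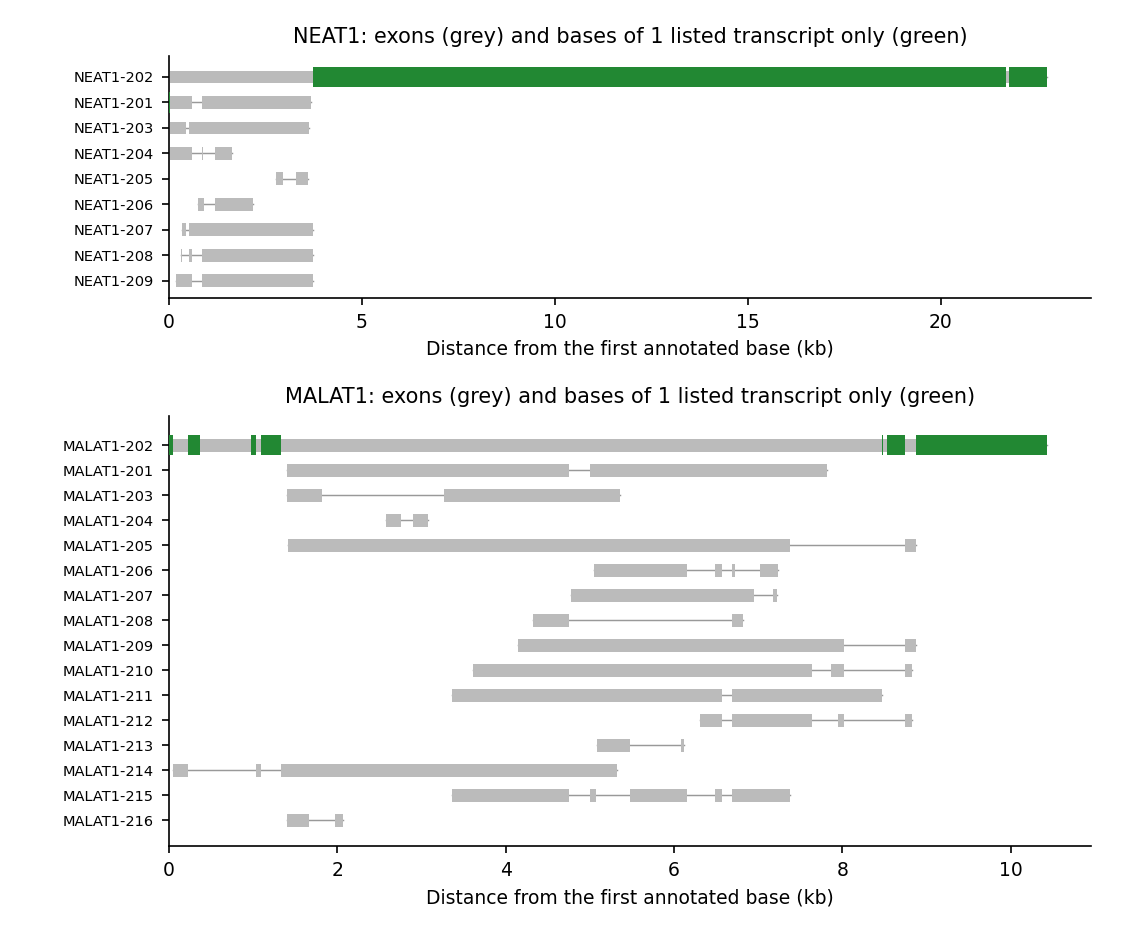
Exons (grey) of the listed NEAT1 and MALAT1 transcripts and bases covered by 1 listed transcript only (green), against distance from the first annotated base in kb. The green part of NEAT1 is the 18927 bases of NEAT1-202 (the 24 of NEAT1-201 are too short to see). MALAT1-202 has 2263 such bases, mostly past the A-rich tract at which its mature RNA ends.

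Long NEAT1 was higher after HgCl2. NEAT1-202 held 474 and 467 counts in EtOH and 773 and 749 in HgCl2. As FPKM, the length-scaled and depth-scaled fragment value of the authors, these were 3.79 and 3.74 against 7.73 and 7.49. After TMM scaling, which equalises the libraries on the bulk of their transcripts, the log2 ratio of HgCl2 to EtOH was 0.84 (0.67 to 1.01), a fold of 1.79. This ratio was the highest among the most counted transcripts of the 6 genes. By the TMM value it stayed short of 2-fold, although its interval reached 1.01. The authors' FPKM scale added 0.32 to the log2 count ratio, against 0.14 for TMM, so the place relative to 2-fold depends on the scaling.

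The shift of the well-counted transcripts has to be set beside the ratio of NEAT1-202. Of the 2712 tested transcripts whose mean reached 200 counts, 1812 were higher in HgCl2, and their median log2 fold change was 0.21. Relative to this median NEAT1-202 was higher by 0.63 on the log2 scale, a fold of 1.55. A total of 228 of the 2712 (8.41%, NEAT1-202 included) had a log2 fold change as high or higher, and among the 109 of lncRNA genes it was 12.

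MALAT1-202 (ENST00000534336, chr11:65497640-65508073, plus strand, 1 exon) carried 99.99% of the MALAT1 counts and was also higher. It held 2081 and 2150 counts in EtOH and 2847 and 2951 in HgCl2. The FPKM values were 43.5 and 44.9 against 74.4 and 77.1. The log2 ratio was 0.60 (0.52 to 0.68), a fold of 1.51, or 1.31 relative to the median of the well-counted transcripts. Of its 10434 bases, 2263 are own bases, and only 658 of these lie within the 8829 bases that the other 15 listed MALAT1 transcripts span. Most of the 2263 lie past the A-rich tract shown above, at which the mature RNA ends. How the counts divide at this tract is not given. The length behind the deposited FPKM values is 8708 bases, so the authors' model of this transcript was shorter than that of GENCODE 44.

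The other 15 MALAT1 transcripts have no own base, and 14 of them were at 0. A read within the body of MALAT1 could thus be counted for MALAT1-202 only in part of its length. MALAT1-202 was nevertheless the third most counted transcript of all lncRNA genes.

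NORAD-201 (ENST00000565493, chr20:36045618-36051018, minus strand) is the most direct measure of the 6, since it is the only listed transcript of its gene and all 5401 bases are own bases. It was the most counted lncRNA transcript and stood at 24 among the 39729 transcripts with counts. Its columns held 12598 and 12397 counts in EtOH and 15350 and 15251 in HgCl2. FPKM values were 425 and 418 in EtOH and 646 and 642 in HgCl2. NORAD-201 was higher by 0.44 (0.40 to 0.47) on the log2 scale, a fold of 1.35, and by a fold of 1.17 relative to the median of the well-counted transcripts.

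OIP5-AS1-201 (ENST00000500949, chr15:41283958-41306539, plus strand, 4 exons) was the second most counted lncRNA transcript. It has 4547 own bases of 8881. One of the 3 miR-7 seed matches lies in them, and the site with the long pairing shown above does not. Counts were 5858 and 5817 in EtOH and 7363 and 7363 in HgCl2. The log2 ratio was 0.48 (0.43 to 0.53), a fold of 1.39, close to that of NORAD.

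The minor OIP5-AS1 transcripts did not follow it. OIP5-AS1-203 held 83 and 75 counts in EtOH and 65 and 69 in HgCl2, at a log2 ratio of -0.09 (-0.59 to 0.39). OIP5-AS1-202 held 25 and 22 against 13 and 12, at -0.77 (-1.89 to 0.28). Both intervals include 0. OIP5-AS1-209 held 29 and 33 counts in EtOH and 4 and 8 in HgCl2, at -2.23 (-3.78 to -0.94), and has no own base. OIP5-AS1-207 held 2, 2, 1 and 0 counts, and the remaining 5 transcripts were at 0, among them OIP5-AS1-204 with 1405 and OIP5-AS1-210 with 1126 own bases.

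A 0 on a transcript with own bases allows up to 3 counts per column. Within OIP5-AS1 the share on OIP5-AS1-201 was 97.7% (97.3 to 98.1) in EtOH and 98.8% (98.6 to 99.1) in HgCl2. The gene's sum followed its main transcript, with 5997 and 5949 counts in EtOH and 7446 and 7452 in HgCl2 and a log2 ratio of 0.46 (0.41 to 0.51).

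TUG1, which GENCODE 44 classes as a protein-coding gene, showed the smallest difference. TUG1-206 (ENST00000569149, chr22:30970758-30976039, plus strand, 2 exons) held 494 and 490 counts in EtOH and 452 and 481 in HgCl2. After scaling the log2 ratio was 0.07 (-0.12 to 0.25), and it lay between -0.11 and 0.24 over the other scalings. The direction for TUG1-206 is therefore not set by these data. Relative to the median of the well-counted transcripts it was lower, at -0.14 on the log2 scale.

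The longer forms were higher in counts. TUG1-217 (ENST00000644773) held 115 and 114 against 131 and 130, at 0.33 (-0.04 to 0.71). TUG1-216 (ENST00000644027) held 93 and 90 against 125 and 128, at 0.61 (0.21 to 1.01), on only 90 own bases. The remaining 17 TUG1 transcripts were at 0.

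The split of TUG1 counts moved away from TUG1-206. Its share was 70.5% (67.0 to 73.8) in EtOH and 64.5% (60.9 to 68.0) in HgCl2, and these intervals overlap. TUG1-216 went from 13.1% (10.7 to 15.8) to 17.5% (14.8 to 20.5), and TUG1-217 from 16.4% to 18.0%, although per own base the share of TUG1-217 differed by -0.60 points. The sum of the gene was 702 and 694 counts in EtOH and 708 and 739 in HgCl2, at a log2 ratio of 0.20 (0.04 to 0.35). That is about the median of the well-counted transcripts.

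KCNQ1OT1 went the other way. KCNQ1OT1-201 (ENST00000597346, chr11:2608328-2699994, minus strand, 1 exon) is 91667 bases long, with 90544 own bases. It held 40 and 39 counts in EtOH and 4 and 3 in HgCl2. The log2 ratio was -3.35 with a wide interval (-5.47 to -1.80). FPKM values were 0.0794 and 0.0774 in EtOH and 0.00993 and 0.00744 in HgCl2, which lies under the filter of 1 FPKM, so this transcript is not among those tested.

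Low counts often differed between these libraries, and KCNQ1OT1-201 was read against transcripts of like depth. Of 1343 other transcripts with a mean between 31.6 and 49.4 counts in EtOH, 22 (1.64%) had a ratio as low or lower, and the median of this class in HgCl2 was 29 counts. For OIP5-AS1-209 the same reading gave 184 of 1550 (11.9%). Of the 22 transcripts over 20 kb long that averaged 10 counts or more, 12 had a ratio below 0 and 10 above, from -3.35 for KCNQ1OT1-201 to 1.29 for ZBTB20. The next lowest was ENSG00000280383, at -2.83 with means of 27.5 and 3.5 counts. Fewer transcripts had a count in HgCl2 (25432 and 25531) than in EtOH (33148 and 33106), and tested transcripts under 30 counts had a median log2 fold change of -1.04. The part of this in the values of KCNQ1OT1-201 and OIP5-AS1-209 was not tested.

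**Figure D2:**
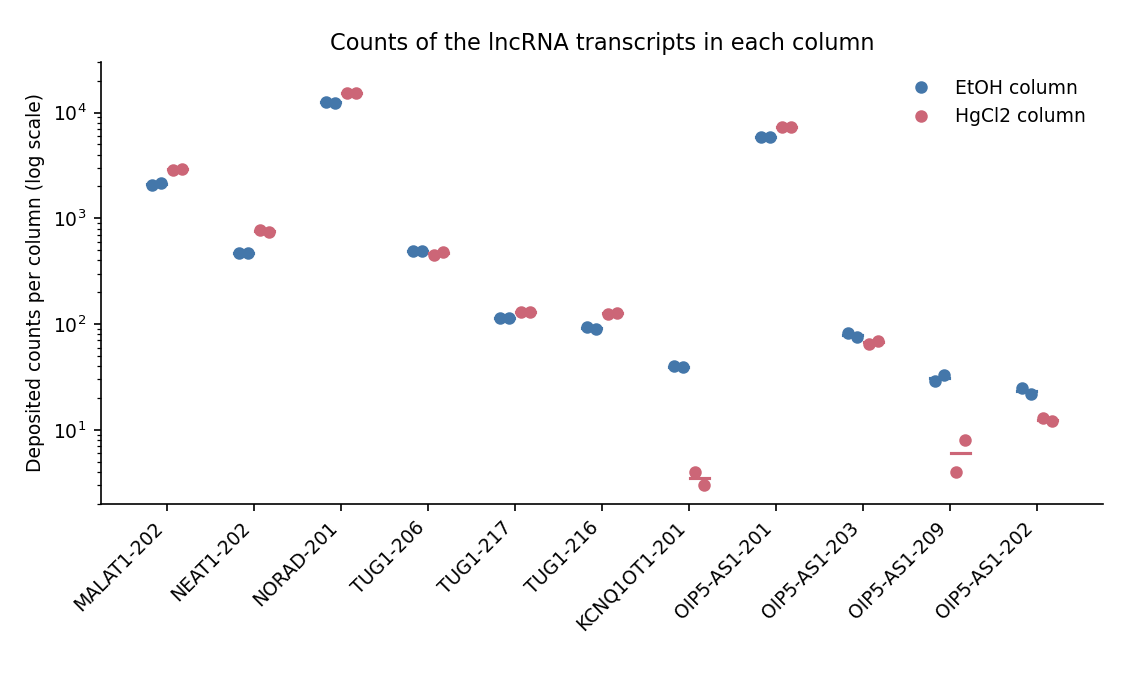
Deposited counts (log axis) in each column for the 11 lncRNA transcripts whose mean reached 10 counts in a group; points are columns and bars the means of the 2 columns. NEAT1-202, MALAT1-202, NORAD-201 and OIP5-AS1-201 are higher in both HgCl2 columns, TUG1-206 is slightly lower before scaling, and KCNQ1OT1-201 and OIP5-AS1-209 are lower.

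Per length, the order of the genes was the same in both groups. In EtOH the mean FPKM of the most counted transcript was 421 for NORAD, 120 for OIP5-AS1, 44.2 for MALAT1, 21.3 for TUG1, 3.77 for NEAT1 and 0.0784 for KCNQ1OT1. FPKM divides by the whole length although shared bases were mostly not counted, so the values of MALAT1, TUG1 and OIP5-AS1 understate their levels. Mean counts per kb of own bases gave the same order in EtOH, with 2314 for NORAD, 1284 for OIP5-AS1, 935 for MALAT1, 462 for TUG1, 24.9 for NEAT1 and 0.436 for KCNQ1OT1. Of the own bases of MALAT1-202, however, 1557 lie past the end of the other MALAT1 transcripts and may not be part of the authors' shorter model. If all its counts lay on the other 706 bases, MALAT1-202 would have 2996 counts per kb in EtOH, above NORAD. Some of these 706 bases also lie past the A-rich tract. Counts by position are not given, so the place of MALAT1-202 by own bases is not settled. By FPKM, neighbours in this order differed by more than their columns. The levels of NEAT1 and MALAT1 are those of RNA caught by poly-A selection, and the part of their RNA without a tail was not measured apart.

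Ratios between these RNAs do not depend on the scaling of the libraries. Counts of NEAT1-202 relative to NORAD-201 were 1.32 times higher in HgCl2 than in EtOH (1.17 to 1.49, from the variance of log counts). Relative to MALAT1-202 they were 1.18 times higher (1.04 to 1.34) and relative to TUG1-206 1.71 times (1.44 to 2.02). MALAT1-202 was higher relative to NORAD-201 by 1.12 times (1.05 to 1.19). OIP5-AS1-201 relative to NORAD-201 gave 1.03 (0.988 to 1.07), and this interval includes 1. The order by ratio was thus NEAT1, MALAT1, then OIP5-AS1 with NORAD, then TUG1.

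**Figure D3:**
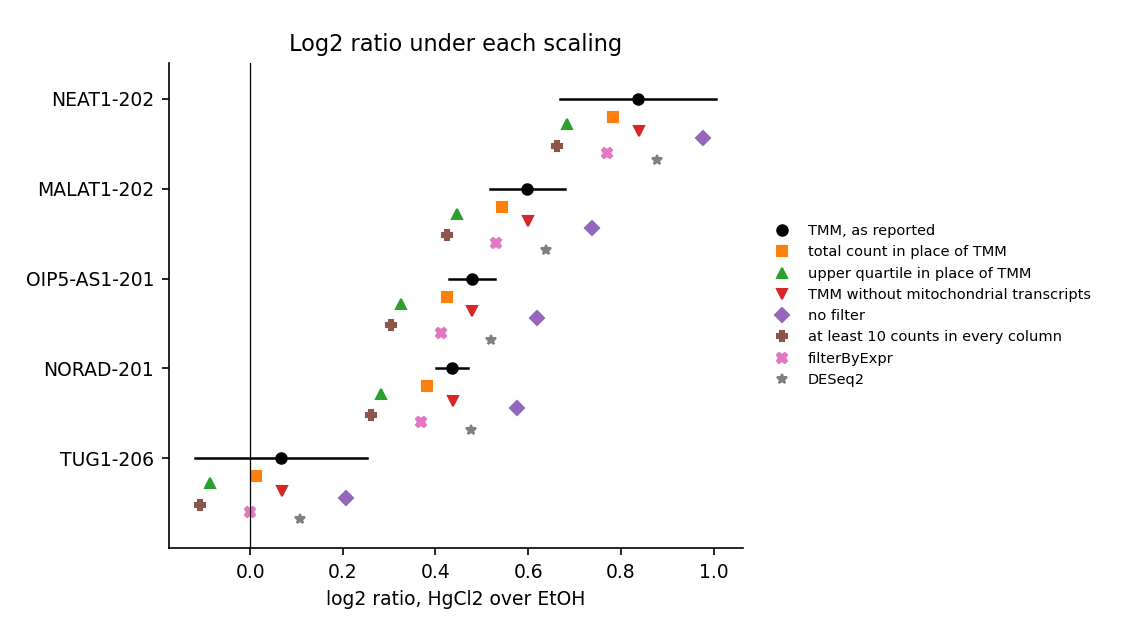
Log2 ratio of HgCl2 to EtOH for the most counted transcript of 5 lncRNA genes under each way of scaling the libraries; the black point and bar are the TMM value and its 95% counting interval. All ratios shift together between scalings: NEAT1-202 stays above 0.66 and NORAD-201 above 0.26, while TUG1-206 lies on both sides of 0.

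Tested transcripts are those whose mean FPKM exceeded 1 in either group, and 10 of the 57 were among them. OIP5-AS1-209, 1 of these 10, lay past 2-fold, where 53.3% of all 17547 tested transcripts did (19.2% higher and 34.1% lower). Of all transcripts past 2-fold, 36.0% were thus higher, and 46.7% were where every column needed 10 counts. At a mean of 200 counts or more, 0 of the 5 lncRNA transcripts lay past 2-fold, beside 6.67% of all 2712 and 11.9% of the 109 from lncRNA genes. A total of 3 of the 10 had 30 to under 200 counts, where 36.4% of all were past 2-fold, and 2 had fewer, where 72.6% were and 50.9% were lower. The share past 2-fold among the 10 was thus no higher than the background of their count class.

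**Figure D4:**
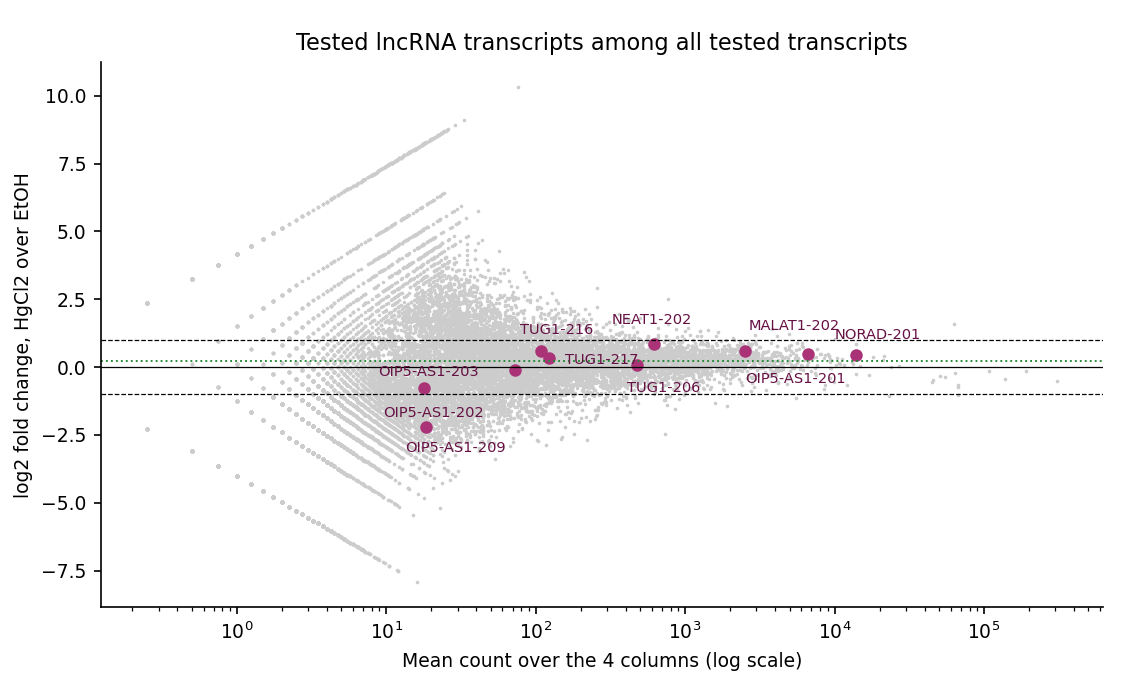
Log2 fold change of HgCl2 over EtOH against mean count (log axis) for the 17547 tested transcripts (grey) and the 10 tested lncRNA transcripts (purple); dashed lines mark 2-fold and the dotted line the median of 0.21 at 200 counts or more, and the outer slanting rows are transcripts with 0 counts in a group. NEAT1-202, MALAT1-202, OIP5-AS1-201 and NORAD-201, at 0.44 to 0.84, and the TUG1 forms TUG1-216 and TUG1-217 lie above the dotted line and below 2-fold, TUG1-206 lies near 0, and OIP5-AS1-209 is below the lower dashed line.

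Other lncRNAs had log2 fold changes like those of NEAT1 and MALAT1. Among 105 transcripts of other lncRNA genes with at least 200 counts, the nearest to NEAT1-202 over the 2 conditions were LINC00342 at 0.83, ENSG00000203644 at 0.80 and ENSG00000277701 at 0.79. LINC00342 held 169 and 174 counts in EtOH and 281 and 272 in HgCl2. The nearest to MALAT1-202 were a retained-intron transcript of SNHG6 at 0.60, GS1-600G8.3 at 0.61 and HERC2P3 at 0.61. With 1 value per condition such likeness is only one of size.

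The protein partners were described from fixed lists, with the same 2-fold limit. Of the paraspeckle protein genes, 19 of 25 had a tested transcript. Of 62 tested transcripts 6 were higher and 19 lower past 2-fold, where 19.2% and 34.1% of all tested were. Their median was -0.11 against -0.21 over all tested. At a mean of 30 counts or more it was 3 higher and 5 lower of 38, where 15.5% and 9.53% of all were. SFPQ, a core paraspeckle protein, held 3345 and 3339 counts in EtOH and 3669 and 3615 in HgCl2 on ENST00000357214, a log2 fold change of 0.27. PSPC1 (ENST00000338910) was at 0.18, and a retained-intron transcript of NONO (ENST00000473525) at -0.11.

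Transcripts of other paraspeckle genes lay past 2-fold. Among the lower were HNRNPA1 (ENST00000340913, 59 and 66 counts in EtOH, 13 and 14 in HgCl2, -2.06) and retained-intron forms of CPSF7 (-2.69) and NONO (ENST00000471419, -1.07). An SRSF10 transcript without a defined coding sequence (ENST00000485292) was at -1.19. The most counted HNRNPA1 transcript (ENST00000546500) was at 0.79. Better counted SRSF10 transcripts were at 0.20 (ENST00000485841) and -0.16 (ENST00000492112). Higher were HNRNPH3 (1.25) and UBAP2L (1.22), each on a transcript without a defined coding sequence, and a retained-intron form of PSPC1 (1.39).

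Among the proteins of nuclear speckles, where MALAT1 sits, 13 transcripts were higher and 8 lower past 2-fold of 54 tested, at a median of 0.29. Over all tested transcripts 19.2% were higher and 34.1% lower, at a median of -0.21. With at least 30 counts, 9 of 33 were higher and 0 lower by the edgeR fold, beside 15.5% and 9.53% of all with that count. Over the 36 with 10 counts or more in every column 6 were higher and 2 lower, beside 963 and 1101 of all 8720. Of the 9 with at least 30 counts, 8 were retained-intron transcripts, out of 20 such in the list. Over all 1059 retained-intron transcripts with that count, 32.5% were higher and 6.7% lower. The 8 came from TRA2B, SON, CLK1, LUC7L2 and SRSF5, which encode splicing factors and, for CLK1, a kinase of SR proteins. The TRA2B form ENST00000492417 held 288 and 315 counts in EtOH and 566 and 588 in HgCl2, at 1.08. Of the retained-intron forms of SON, ENST00000474355 was at 1.47, ENST00000478183 at 1.30 and ENST00000477419 at 0.55, and the main coding transcript of SON (ENST00000381679) was at -0.11. SRRM2, a scaffold of speckles, was at -0.17 and the leading SRRM1 transcript, a retained-intron form, at 0.04. The 1 higher transcript of another class was ENST00000409769 of CLK1, with 5 and 8 counts against 79 and 69. The 13 transcripts of the list that retain no intron had a median of -0.01, and the 20 that retain one had a median of 0.85, beside 0.59 over all retained-intron transcripts with that count.

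**Figure D5:**
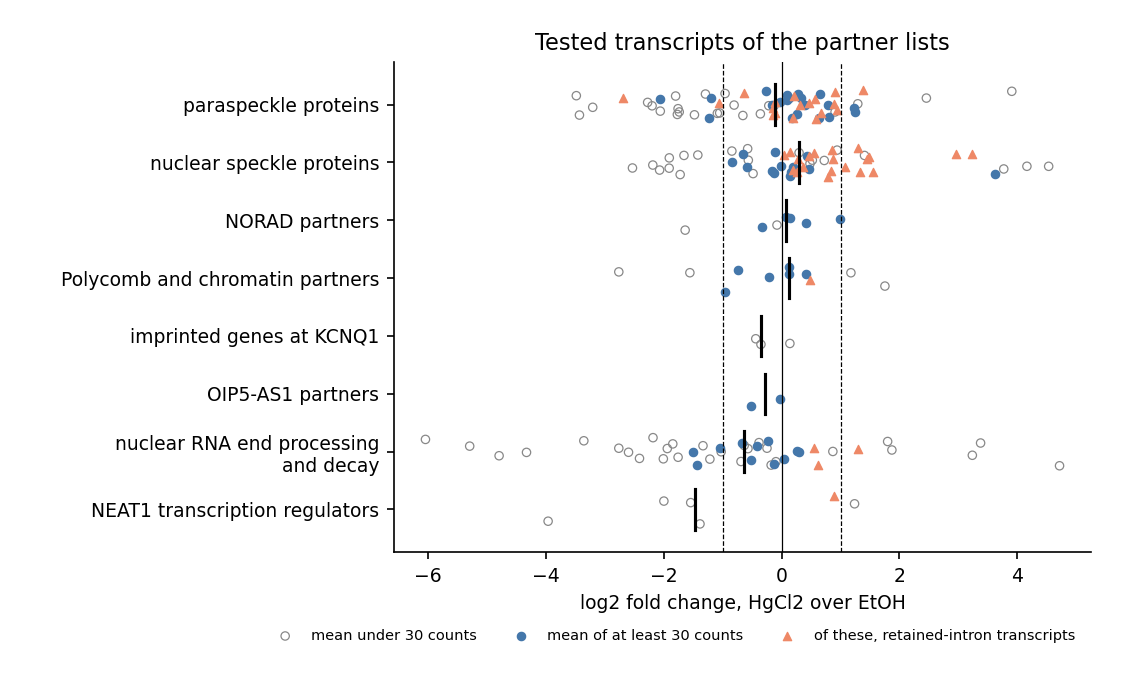
Log2 fold change of HgCl2 over EtOH for each tested transcript of the partner lists; filled symbols have a mean of 30 counts or more, triangles are retained-intron transcripts among these, black bars are list medians and dashed lines mark 2-fold. The 9 filled speckle symbols right of the right-hand dashed line are 8 triangles and 1 coding transcript of CLK1.

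NORAD partners had 7 tested transcripts at a median of 0.07. Past 2-fold 0 were higher and 1 lower, where 19.2% and 34.1% of all tested were. The leading transcript of PUM2 was barely counted, with 10.5 counts on average in EtOH and 9 in HgCl2. RBMX, a nuclear RNA-binding protein, was at -0.33 on its leading transcript, a nonsense-mediated-decay form (ENST00000568578). TOP1 and CDC5L, both well counted, were at 0.07 and 0.14. For TUG1 and KCNQ1OT1, 11 transcripts of Polycomb and chromatin partners were tested, with 2 higher and 2 lower and a median of 0.12, beside 53.3% of all tested past 2-fold. These 4 had under 30 counts, where 72.6% of all tested lay past 2-fold. Of the 7 with more, 0 did, beside 25% of all with that count. SUZ12 was at -0.21 and a nonsense-mediated-decay transcript of EZH2, the methyltransferase subunit, at -0.95. The leading EED transcript, a retained-intron form, held 12 and 16 counts in EtOH and 43 and 43 in HgCl2.

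Nuclear RNA end processing and decay, the list with RNase P, RNase Z and the exosome, had 43 tested transcripts with 6 higher and 19 lower past 2-fold and a median of -0.63, where 19.2% of all tested were higher and 34.1% lower. Only 14 had at least 30 counts, of which 1 was higher and 3 lower, beside 15.5% and 9.53% of all with that count. MTREX, the helicase of the nuclear exosome, held 122 and 127 counts in EtOH and 40 and 39 in HgCl2, at -1.51. ZFC3H1, which targets poly-A RNA to the exosome, was at -1.44 on a nonsense-mediated-decay transcript (ENST00000552994). RPP30, an RNase P subunit, was at -1.04 on a transcript without a defined coding sequence. EXOSC7, an exosome subunit, was at 1.30 on a retained-intron transcript. POP1 of RNase P was at -0.53 while the retained-intron forms of POP4 went both ways, with ENST00000586173 at -2.01 and ENST00000592749 at 1.87, each with a mean under 30 counts. ELAC2, or RNase Z, had 1 to 5 counts.

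Regulators of NEAT1 transcription were barely counted. Of 6 tested transcripts 1 was higher and 4 lower past 2-fold at a median of -1.46, and only 1 had at least 30 counts. Under 30 counts 72.6% of all tested lay past 2-fold, at a median of -1.04. The leading transcripts of HSF1, HIF1A and EPAS1 held at most 6 counts in any column, so nothing on them can be set beside NEAT1.

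OIP5, the gene antisense to OIP5-AS1, differed in the other direction. Its transcript ENST00000220514 held 791 and 803 counts in EtOH and 493 and 512 in HgCl2, at a log2 ratio of -0.52 (-0.69 to -0.36). The genes overlap on opposite strands, and the counting is not stated to use strand, so reads in the overlap cannot be assigned. CHP1, which ends 2071 bases before OIP5-AS1, was lower by less, at -0.32 (-0.40 to -0.23). On the other side NUSAP1 held 1 count in each EtOH column and 0 in HgCl2. ELAVL1, the protein that OIP5-AS1 binds, was at -0.03, and GAK had at most 3 counts.

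The other neighbours gave little. FRMD8, the nearest protein-coding gene before NEAT1 and MALAT1, was at 0 counts on every listed transcript. For NORAD, CNBD2 held 31 and 36 counts in EtOH and 5 and 15 in HgCl2, at -1.60 (-2.78 to -0.55), and EPB41L1 held 1 count in all. MORC2, which starts 471 bases from TUG1 on the opposite strand, held 59 and 54 counts against 68 and 80, at 0.53 (0.01 to 1.06). SMTN held 25 and 25 against 13 and 12. Around KCNQ1OT1, the leading transcripts of KCNQ1, TRPM5 and CDKN1C were at 0 counts, and PHLDA2, another imprinted gene of this domain, held 12 and 12 against 8 and 9. Of 8 such imprinted genes, 2 had any counts, and 0 of 3 tested transcripts lay past 2-fold, beside 53.3% of all tested. These 3 had under 30 counts, where 72.6% of all tested lay past 2-fold.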

How the data were processed

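RNA-seq of H1299 cells treated with HgCl2 or EtOH was analysed. Reads had been trimmed by the authors (Trim Galore 0.6.5) and aligned to GRCh38 with STAR 2.5.4b and the Ensembl 98 annotation, and the authors deposited raw counts per transcript from Rsubread 2.0.1, whose options are not given in the sources used here. The authors also deposited FPKM values, which follow from the counts and transcript lengths with DESeq2 1.26.0. From the counts, log2 fold changes were fitted with edgeR 4.0.16 (TMM, R 4.3.3) for the 17547 transcripts whose mean FPKM exceeded 1 in either group. Alternatives used DESeq2 1.42.0 and limma 3.58.1, and the fit was tested on simulated data. Names, coordinates and sequences come from GENCODE 44 on GRCh38, where 223558 of 227368 identifiers were found. The length behind the FPKM values equalled that of GENCODE within 1 base for 90.4% of 5543 transcripts. TMM added 0.14 to the log2 count ratio of HgCl2 to EtOH.

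The genes and lists were chosen with earlier results of these data known. Named were all transcripts of the 6 genes, those reaching a mean of 10 counts in a group by value; the leading transcript of the first 3 genes of each list and those past 2-fold at a mean of 30 counts or more; the nearest protein-coding genes; and the 3 lncRNA transcripts nearest in fold change to NEAT1 and MALAT1. A few genes that these choices name are not reported here. TOP1, CDC5L, ZBTB20, ENSG00000280383 and further transcripts of SON, POP4, HNRNPA1 and SRSF10 were named after their values were seen. Alternatives changed the scaling, the filter, the tool, the pseudocount of limma, the replicate block and the columns used. Depth limits the transcripts under 30 counts, whose ratios have wide intervals.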

Additional observations from a re-analysis of the deposited data

How the results depend on the processing

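Scaling moved all ratios together. With upper quartile in place of TMM the log2 ratios were 0.45 for MALAT1, 0.28 for NORAD, 0.33 for OIP5-AS1-201, 0.31 for the OIP5-AS1 sum and 0.043 for the TUG1 sum. Where every column needed 10 counts they were 0.42 for MALAT1, 0.66 for NEAT1, 0.26 for NORAD, 0.30 for OIP5-AS1-201, 0.29 for the OIP5-AS1 sum and 0.021 for the TUG1 sum. Without a filter they were 0.74 for MALAT1, 0.98 for NEAT1, 0.57 for NORAD, 0.62 for OIP5-AS1-201 and 0.60 for its sum. Total count gave 0.38 for NORAD, 0.42 for OIP5-AS1-201 and 0.41 for its sum, and filterByExpr gave 0.37, 0.41 and 0.40. DESeq2 gave 0.48 for NORAD. On log2(FPKM + 1) limma gave 0.76 for MALAT1, 0.61 for NORAD, 0.65 for OIP5-AS1-201, 0.53 for its sum and -0.10 for KCNQ1OT1, whose FPKM lies far under the pseudocount. With a pseudocount of 0.1 these were 0.77, 0.61, 0.66, 0.53 and -0.72. For NEAT1 limma gave 0.85 with a pseudocount of 1 and 0.996 with 0.1. None changed the sign of MALAT1, NEAT1, NORAD, OIP5-AS1-201 or KCNQ1OT1. TUG1-206 lay between -0.11 and 0.24.

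The number of lncRNA transcripts past 2-fold was 1, but 4 without a filter, 2 with filterByExpr and 0 where every column needed 10 counts, because other transcripts were then tested. Over all transcripts it was 9359, and 27155, 5880 and 2064. Where every column needed 10 counts, 9 of 40 paraspeckle, 8 of 36 speckle and 4 of 18 RNA end processing transcripts lay past 2-fold. It was 0 of 5 for NORAD partners and 0 of 1 for NEAT1 regulators, beside 2064 of all 8720. Per own base the share of OIP5-AS1-201 was higher in HgCl2 by 8.26 points and that of OIP5-AS1-203 lower, at -8.05 points, which rests on 21 own bases of the latter.

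Leaving out 1 column gave 0.57 to 0.63 for MALAT1, 0.82 to 0.86 for NEAT1, 0.42 to 0.45 for NORAD, 0.02 to 0.11 for TUG1-206, -3.57 to -3.16 for KCNQ1OT1 and 0.47 to 0.48 for OIP5-AS1-201. Same-numbered columns did not deviate together (r = -0.0058 across 4639 transcripts, which are not independent replicates). The columns of a group differed by less than counting noise, so this value cannot tell whether the numbers mark pairs. The replicate block gave 0.84 for NEAT1, 0.60 for MALAT1 and 9359 transcripts past 2-fold, and it changed no other count. Depth and the uncounted shared bases limit the minor transcripts.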
